A study of Mus musculus with 2 samples.

Results

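Cdx, Meis and Pbx genes encode homeodomain transcription factors that act before and beside the Hox proteins, and their transcripts were compared between embryos of wild-type mice and of mDom-/- mice at embryonic day 8.5 (E8.5). The members were Cdx1, Cdx2, Cdx4, Meis1, Meis2, Meis3, Pbx2 and Pbx3. They were found by gene symbol in the platform annotation of the arrays, with older synonyms resolved through Entrez identifiers. This gave 8 genes with 9 probes, of 18069 genes named by a probe of their own. Cdx1 had 2 probes and each of the others had 1. All 9 probes were above the detection floor on both arrays, so no ratio of a member is a bound.

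The study used 2 arrays, 1 per group, of total RNA from the whole embryo proper. Each RNA was a pool of littermates, 42 wild-type embryos in one and 45 embryos homozygous for the mDom mutation (mDom-/-, called the mutant pool) in the other. mDom (mDomino, p400) is the submitters' name for Ep400, which encodes the ATPase of the TIP60/p400 chromatin-remodelling complex. Neither the kind of mutant allele nor the strain is given in the sources used here. A single pool stood for each genotype, so replicate error is unknown, no test could be made and no p-value is given. The precision is limited by the number of arrays.

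The caudal-type genes Cdx1, Cdx2 and Cdx4 are switched on in the primitive streak and posterior embryo under Wnt, FGF and retinoic acid signals. They activate Hox genes and keep the body axis growing at its posterior end. Meis and Pbx proteins belong to the TALE class, named for extra residues in a loop of the homeodomain. They bind one another and bind DNA together with Hox proteins, which sharpens the choice of target sites. Pbx proteins depend on Meis or Pknox (Prep) partners to stay in the nucleus.

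Each intensity below is a multiple of the median of its array, and each log2 ratio is that of the mDom-/- array over the wild-type array. The floor, below which a probe was treated as not detected, was 0.541 times the array median. Both Ep400 probes were below it on both arrays, with 0.215 and 0.470 in wild-type and -0.029 and 0.071 in the mutant pool, so the disrupted gene could not check the labels. Embryonic tissues were represented on both arrays, with the heart light chain gene Myl7 at 354.3 and 374.3, the somite gene Meox1 at 19.5 and 18.4 and the neural gene Sox3 at 18.4 and 16.8 in wild-type and mDom-/-. The probe of the neural gene Sox2 was below the floor on both. The median log2 ratio over all 13136 compared genes was -0.0039. Between probes of the same gene, the SD of a log2 ratio was 0.25 (1301 genes with 2 probes measured on both arrays), which covers probe error and not the spread between pools.

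Cdx1 was the member that differed most between the pools, and it was higher in the mDom-/- embryos. Its brighter probe read 35.4 in wild-type and 63.2 in the mutant pool, a 1.79-fold higher value and a log2 ratio of 0.84. Its dimmer probe read 3.65 in wild-type and 5.68 in the mutant pool, 1.56-fold higher and a log2 ratio of 0.64. The log2 ratios of both probes thus pointed the same way and lay 0.20 apart, a difference exceeded by 47.7% of the probe pairs on the arrays. Of the 1301 genes with 2 probes measured on both arrays, 17 had a brighter probe at least 1.5-fold higher. Cdx1 was among 5 of these whose other probe was also at least 1.5-fold higher. Because Cdx1 entered the 17 by its own value, this count only describes it. In a pool of whole embryos, more cells expressing a gene and more RNA per expressing cell cannot be told apart.

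**Figure D1:**
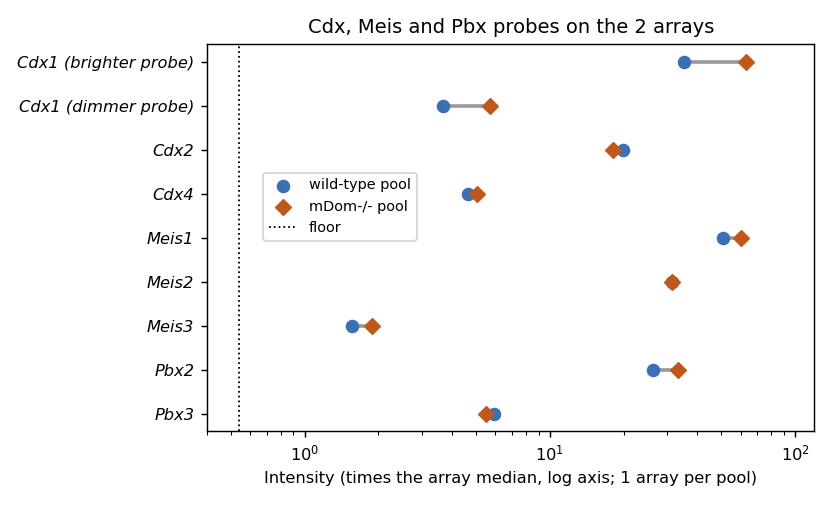
Intensity of each member probe on the wild-type array (circles) and the mDom-/- array (diamonds), in units of the array median on a log axis, with 1 array per pool and the floor as a dotted line. Both Cdx1 probes lie further to the right in the mutant pool (35.4 to 63.2 and 3.65 to 5.68), while the symbols of Meis2 coincide; levels of different probes are not comparable with each other.

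Bright probes vary less between these arrays than dim ones, so each member was also placed among the 1000 genes nearest to it in brightness and measured on both arrays. For the brighter probe of Cdx1 those neighbours had a median log2 ratio of 0.01 and a robust SD of 0.18. A single one of the 1000 had a higher ratio than Cdx1. For the dimmer Cdx1 probe, 20 of its 1000 neighbours were higher. Over all 11926 genes measured on both arrays, 1.09% of the others had a higher ratio than Cdx1. These ranks describe the pair of arrays and say nothing of how pools of one genotype would differ.

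The other caudal genes did not share the size of that difference. Cdx2, which is also needed in trophoblast and in the hindgut, read 19.9 in wild-type and 18.1 in the mutant pool, a log2 ratio of -0.14. Cdx4, the X-linked member, which is expressed at the posterior end, read 4.64 and 5.07, a log2 ratio of 0.13. Both ratios were smaller than the SD of 0.25 between probes of a gene. Among their own neighbours in brightness, 28.8% of genes lay below Cdx2 and 25.9% above Cdx4. Because a difference between the ratios of a pair of genes does not depend on a scaling constant, the family can also be read internally: the log2 ratio of Cdx1 exceeded that of Cdx2 by 0.98 and that of Cdx4 by 0.71. The log2 ratios of Cdx2 and Cdx4 were 0.27 apart, where the median difference between probes of 1 gene was 0.19.

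The Meis genes showed small positive differences or none. Meis1, a partner of Hox and Pbx proteins in the trunk and in blood-forming cells, read 50.9 in wild-type and 60.2 in the mutant pool, a log2 ratio of 0.24. Meis2 read 31.4 on both arrays, a log2 ratio of -0.0028. Meis3, which acts in the hindbrain, was the dimmest member at 1.56 and 1.88, a log2 ratio of 0.27. The values of Meis1 and Meis3 were thus about as far from 0 as the SD between probes. Brightness set them apart: 10.7% of the neighbours of Meis1 and 18.6% of those of Meis3 had a higher ratio, since dim genes scatter more.

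The Pbx genes went in opposite directions by small amounts. Pbx2, which is expressed in nearly all tissues of the embryo, read 26.3 in wild-type and 33.2 in the mutant pool. Its log2 ratio of 0.33 was the second highest among the members, and 60 of its 1000 neighbours in brightness were higher. Pbx3 read 5.92 and 5.50, a log2 ratio of -0.10, with 36.1% of its neighbours lower. The Pbx2 and Pbx3 ratios were 0.44 apart.

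**Figure D2:**
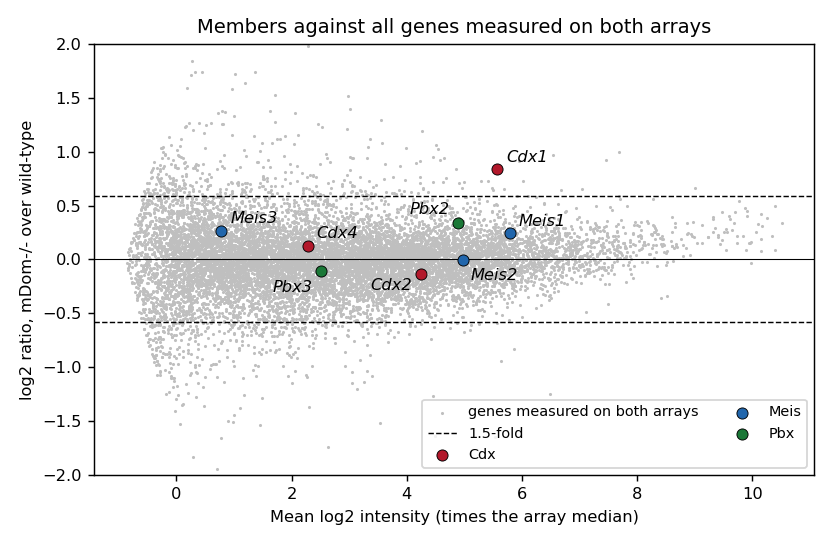
Log2 ratio of mDom-/- over wild-type (vertical axis) against mean log2 intensity in units of the array median (horizontal axis) for genes measured on both arrays (grey) and for the members (coloured by family), with dashed lines at 1.5-fold; 6 grey points lie beyond the vertical range. Cdx1, at 0.84, sits above nearly all genes of its brightness, while the other 7 members lie between -0.14 and 0.33, within the grey cloud.

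Counted by a rule of size, 1 of the 8 members, Cdx1, was at least 1.5-fold higher in the mutant pool, beside 4.08% of all compared genes. None was at least 1.5-fold lower, beside 4.35% of all compared genes. No member was at least 2-fold apart, where 0.845% of compared genes were higher and 0.929% lower. With 8 members these counts do not set the group apart from the background. Among genes measured on both arrays, as all members were, 3.22% passed the 1.5-fold rule upward and 3.42% downward. Among the 1000 genes nearest to Cdx1 in brightness 0.8% were at least 1.5-fold higher. The members had a median log2 ratio of 0.19, or 0.13 without Cdx1, with 5 above 0 and 3 below, where 49.4% of all compared genes lay above 0. The 5 Meis and Pbx genes had a median of 0.24.

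The remaining TALE homeobox genes gave a comparison within the same protein class. Of 12 listed genes 11 had a probe and 10 were compared, with a median log2 ratio of 0.01, 5 above 0 and 5 below. Pknox1, which like Meis proteins pairs with Pbx, had a log2 ratio of -0.05, and its paralogue Pknox2 was a bound of at least 1.22-fold lower, from 0.660 in wild-type to 0.370, below the floor, in the mutant pool. The repressor genes Tgif1 and Tgif2 had 0.25 and -0.19. The Iroquois genes, which pattern neural tissue and the heart, went both ways. Irx4, a gene of the heart ventricle, read 5.11 in wild-type and 3.21 in the mutant pool, 1.59-fold lower. It was the one gene of this list past the 1.5-fold rule, beside 4.08% of all compared genes upward and 4.35% downward. Irx6 was dim, at 0.724 and 1.05, with a log2 ratio of 0.54. Irx1, Irx2, Irx3 and Irx5 lay between -0.05 and 0.19, and Mkx was below the floor on both arrays.

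Hox genes, the genes that Cdx proteins activate and that Meis and Pbx proteins work with, did not follow the direction of Cdx1. None of the 27 compared Hox genes was at least 1.5-fold higher, beside 4.08% of all compared genes, so this count is near the background. Lower floors, which let in dim genes, gave 1 with the 25th percentile and 3 with no floor. The highest were Hoxb3 in paralogues 1 to 4 (log2 ratio 0.32), Hoxb8 in paralogues 5 to 8 (0.18) and Hoxc13 in paralogues 9 to 13 (0.07). The lowest were Hoxa2 (-0.29), Hoxd8 (-0.58, just short of 1.5-fold) and Hoxa13, which went from 1.84 to below the floor and was at least 3.41-fold lower. In paralogues 9 to 13, 4 of 10 compared genes were at least 1.5-fold lower, against the 4.35% of all compared genes, with Hoxa10 2.20-fold lower (2.63 and 1.20). With a floor at the 60th percentile of the arrays 1 gene of that list was left past the 1.5-fold rule. It was Hoxc9, named after its values were seen, at 18.2 in wild-type and 11.4 in the mutant pool (1.59-fold lower). With the floor at the 60th percentile the mutant values of Hoxa10 and Hoxa13 lay below it, so their log2 ratios of -0.58 and -0.06 are bounds. Hoxa13 was also a bound with the floor at the 25th percentile, at -2.94. The medians of the lists of paralogues 1 to 4, 5 to 8 and 9 to 13 were -0.10, -0.20 and -0.38, all below the 0.19 of the members.

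**Figure D3:**
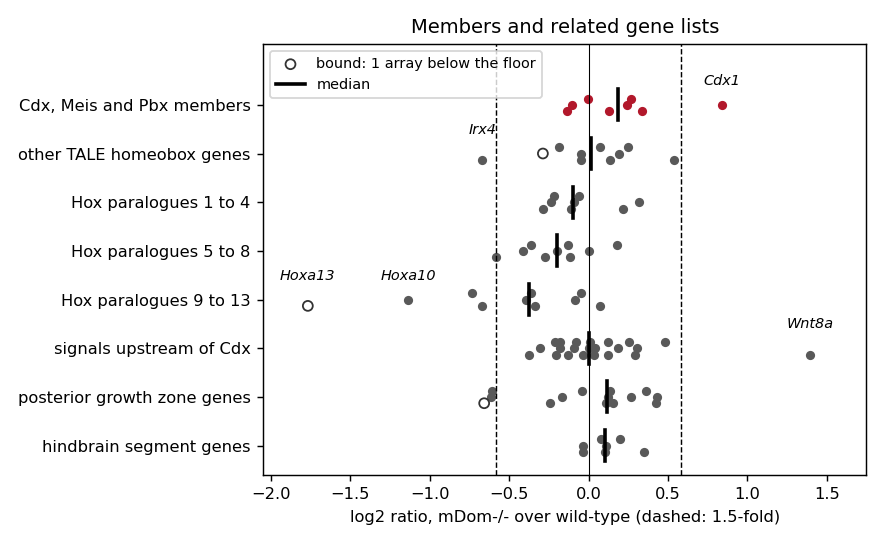
Log2 ratio of mDom-/- over wild-type for each compared gene of the members (red) and of the related lists (grey), with black bars at list medians, open circles for bounds and dashed lines at 1.5-fold. Cdx1 (0.84) and Wnt8a (1.40) lie to the right of their lists, and Hoxa10 (-1.14) and Hoxa13 (at least 3.41-fold lower) to the left of theirs.

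Genes of the signals that act upstream of Cdx were balanced as a list but held 1 large difference. Of 27 listed genes 22 were compared, all measured on both arrays, with a median log2 ratio of 0.0039, 12 above 0 and 10 below. Wnt8a, a Wnt ligand of the primitive streak and posterior embryo, read 4.96 in wild-type and 13.1 in the mutant pool. It was 2.63-fold higher by its 1 probe. No other gene of the list was past the 1.5-fold rule, beside 4.08% of all compared genes upward and 4.35% downward. Ctnnb1, which encodes beta-catenin, was the lowest, at 11.3 and 8.72 with a log2 ratio of -0.38. The genes that follow were picked after their values were seen. Wnt3a had a log2 ratio of 0.30 and Fgf8 had 0.12. The other compared FGF signalling genes of the list went both ways. Fgf17, Fgfr1, Dusp6 and Spry2 had -0.09, -0.21, -0.30 and -0.08, while Etv4 and Etv5 had 0.18 and 0.04. The probe of Axin2 was below the floor on both arrays. Aldh1a2, which makes retinoic acid, had 0.48 (23.4 and 32.6), while the retinoic acid targets Rarb and Cyp26a1 had 0.0019 and -0.20.

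Genes of the posterior growth zone, where Cdx genes are expressed, had a median log2 ratio of 0.12, with 14 of 19 listed genes compared, 8 above 0 and 6 below. None was at least 1.5-fold higher, beside 4.08% of all compared genes, and 3 were at least 1.5-fold lower, beside 4.35%. With 14 genes the upward count is near the background. The highest was Cited1, a transcriptional coactivator gene, at 50.9 in wild-type and 68.6 in the mutant pool, a log2 ratio of 0.43. The lowest was Wnt5a, a Wnt ligand of axis elongation, which was at least 1.58-fold lower (0.853 and 0.353, the latter below the floor) and had a log2 ratio of -1.27 with the floor at the 25th percentile. The other genes past the rule were Dll1 (0.896 and 0.585) and Fgf15 (2.44 and 1.60), and the Wnt target Sp5 had 0.43, all 3 named after their values were seen. Those past the rule were dim, and none of them was so with the floor at the 60th percentile. At that floor Wnt5a and Dll1 were below it on both arrays and Fgf15 was a bound. That setting therefore cannot tell whether they differed. Brachyury (T) was not analysed here.

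Hindbrain segment genes, on which Hox, Pbx and Meis complexes act, were listed with Kat6a, an acetyltransferase gene that maintains Hox expression. All 7 with a probe, of 13 listed, were measured on both arrays, with a median of 0.10 and none at least 1.5-fold apart. Of all genes measured on both arrays, 3.22% were at least 1.5-fold higher and 3.42% lower. With 7 genes a count of none is near those shares. The list ran from Kat6a at -0.04 to Gbx2, a gene of the anterior hindbrain, at 0.35.

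Cdx2 and Cdx1 are also used outside the axis, so markers of other tissues were read beside them. For trophoblast, where Cdx2 is active, 9 of 13 listed genes could be compared and had a median log2 ratio of -0.12. Their summed intensity was 74.2 in wild-type and 65.6 in the mutant pool, and such sums follow the brightest probes of a list. Eomes passed the floor only on the mutant array (0.150 and 0.775), Elf5 only on the wild-type array (0.703 and 0.484), and Esx1 and Tpbpa were below it on both arrays. Krt7, a keratin gene, was the lowest, with a log2 ratio of -0.53. For the allantois, 5 of 6 genes could be compared, and their median was -0.0038, with summed intensities of 16.8 and 15.1. Its defining gene Tbx4 was below the floor on both arrays, Hoxa13 was again the lowest, and the highest was Pitx1 (0.41).

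Gut endoderm genes had a median log2 ratio of 0.23, with 11 of 12 listed genes compared, 7 above 0 and 4 below, and a summed intensity of 215.5 in wild-type and 375.6 in the mutant pool. Spink1, a trypsin inhibitor gene, held most of that sum, at 144.5 and 289.2, and the peptide hormone gene Pyy was 2.09-fold higher. Foxa3 was the lowest, 1.53-fold lower, and Shh was below the floor on both arrays. Visceral endoderm and yolk sac genes had a median of -0.13 over 11 of 12 listed genes. Of them 3 were past 1.5-fold upward, beside 4.08% of all compared genes, and 2 downward, beside 4.35%. The list ran from Lrp2, an uptake receptor gene (-0.74), to Apoc2, an apolipoprotein gene (0.92), and Amn was below the floor on both. The summed intensities of the list were 688.7 and 878.1. Among its brightest probes were Apoc2 (128.0 and 242.2) and, named after their values were seen, Ttr (166.5 and 251.1) and Apoa1 (202.1 and 184.3). Somite genes had a median of -0.0071 (9 of 10 genes, summed 139.5 and 149.8), from Uncx (-0.68) to Aldh1a2, which is also in the list of upstream signals. Neural tube genes had a median of -0.12 (9 of 10 genes, summed 99.4 and 93.3), from the Notch target Hes5 (2.84-fold lower) to Gbx2. With the floor at the 60th percentile Hes5 was a bound, with a log2 ratio of -0.82. Heart genes had a median of -0.01 (4 of 5 genes, summed 567.1 and 539.0), from the cardiac actin gene Actc1 (-0.48) to Myl7 (0.08), and Myh6 was below the floor on both. The part of these tissues in the values of Cdx1 and Cdx2 was not tested.

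**Figure D4:**
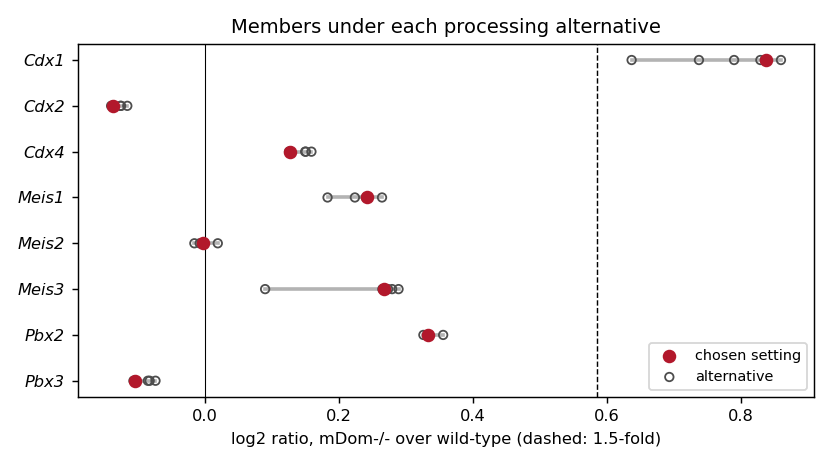
Log2 ratio of mDom-/- over wild-type for each member at the chosen setting (filled) and under each processing alternative (open), with a dashed line at 1.5-fold. Cdx1 stays between 0.64 and 0.86, to the right of the line. The widest other range is that of Meis3, from 0.09, which is a bound, to 0.29.

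The ratios of the members changed little with scaling. For most members the other alternatives could not change them. All 9 member probes were above the floor on both arrays, so lower floors left each ratio as it was. The floor at the 60th percentile reached Meis3 alone, and the choice of probe bore on Cdx1 alone. Cdx1 stayed at least 1.5-fold higher in each alternative, with a log2 ratio from 0.64 to 0.86, the lowest being that of its dimmer probe. In every setting but the dimmer probe, the log2 ratio of Cdx1 exceeded that of Cdx2 by 0.88 to 0.98. In the same settings it exceeded that of Cdx4 by 0.61 to 0.71. With the dimmer probe, for which these differences were not computed, both would be smaller. Cdx2 and Pbx3 stayed below 0 and Cdx4, Meis1, Meis3 and Pbx2 above 0 in every alternative run, while Meis2 moved across 0, from -0.02 to 0.02. Meis3, the dimmest, had 0.09 with the floor at the 60th percentile, a bound because its wild-type value lay below that floor.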

How the data were processed

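Total RNA from pooled E8.5 embryos was labelled with biotin-UTP and measured on CodeLink Expression Bioarrays, per the labels. The deposited values were linear spot intensities, which per the labels came from CodeLink System Software images. The software version, background correction, scaling, flags and genome build are not stated there. Sample titles gave the groups. The code -9999 was read as no value (105 wild-type and 106 mDom-/- probes). Of 36227 probes, 21615 had 1 gene symbol, 681 several and 13931 none; 21487 matched RefSeq genes of GRCm38.p6, used for names only.

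Each array was divided by its median (1.05 in both), raised to a floor (the 40th percentile of whichever array had the higher one) and put on the log2 scale. A gene was compared unless both arrays were below the floor, and took its brightest probe. A ratio with 1 array below the floor is a bound. The steps were checked on simulated arrays. Alternatives were no rescaling, 75th percentile scaling, quantile normalization, loess (span 0.3), floors at the 25th and 60th percentiles or none, the mean over probes, genes above the floor on both arrays, a 1.3-fold rule and, added after seeing the data, the dimmer Cdx1 probe. Members and lists were chosen with earlier results of these data known. Named were the members, the compared TALE genes, and each other list's highest, lowest and at least 2-fold different genes; others are marked, apart from genes named to check the tissue or as below the floor. Python 3.11.15, pandas 2.3.3 and statsmodels 0.14.6 were used.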

Additional observations from a re-analysis of the deposited data

How the results depend on the processing

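No paired analysis was possible because each group had 1 array. For the members, no value moved by more than the SD between probes in any alternative. Lower floors could not change a member's value, nor could the choice of probe for any but Cdx1. The count of members at least 1.5-fold higher was 1 and at least 1.5-fold lower 0 in each alternative, the 1.3-fold rule included. The member median ranged from 0.11 to 0.21. Counts over all genes moved with the floor. At least 1.5-fold higher were 1400 genes with the 25th percentile floor, 209 with the 60th, 1974 with none and 1295 at 1.3-fold, against 536 as chosen; lower were 1362, 211, 1890 and 1447, against 572. At least 2-fold higher were 533, 38 and 1200 genes at these floors and 65 among genes above the floor on both arrays, against 111; lower were 522, 28, 1130 and 71, against 122. The allantois median was -0.43 with the 25th percentile floor. The medians of Hox paralogues 1 to 4, signals upstream of Cdx, allantois, heart, somite, trophoblast and visceral endoderm genes changed sign in at least 1 alternative, and those of the other lists kept theirs. Of 308 values of 36 other named genes, 10 moved by more than the SD between probes and none that was past 1.5-fold changed sign. Signal over the floor limits the dim genes.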
